A study of Fragaria vesca with 8 samples.

Results

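In woodland strawberry fruit, 68 genes were lower upon overexpression of *FvMYB46* but stayed near their control level upon overexpression of *FvVND4c*. They were chosen from 34009 genes by their measured values. Counts were turned into CPM, the reads of a gene scaled to a common library total, and the log2 ratio of the group means plus 0.5 CPM was taken for each construct over its own empty vector. A gene was chosen where this ratio was at or under -1.5 for FvMYB46 (at least 2.83-fold lower), lay between -0.5 and 0.5 for FvVND4c (within 1.41-fold), and the gene had over 3 counts in total in the 4 empty-vector libraries. A total of 21744 genes had that many counts, and they serve below as the background of all expressed genes. A short stretch of chromosome 5 and one of chromosome 4 were left out, and 0 genes that met the limits lay there. The rule used the CPM values of all 8 libraries, so the levels and ratios below describe the chosen genes and are not tests of them.

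The fruits were of the *F. vesca* type "Yellow Wonder" 5AF7, and each group is represented by 2 libraries. FvMYB46-OX fruits had been infiltrated with agrobacterium carrying *35S:FvMYB46*, and their controls, labelled as wild type, with the empty vector. FvVND4c-OX fruits carried *35S:FvVND4c* and had an empty-vector group of their own. Infiltration into the flesh was at 20 days after pollination, while the fruit turns from green to white, and sampling followed 7 days later. All fruits, controls included, therefore share the agrobacterium and the injection. Expression was transient and driven by the viral 35S promoter, which is not confined to a cell type. At least 5 fruits were taken per treatment, but how they were divided between libraries is unknown here, and the methods state 3 biological replicates where the labels list 2. The spread between 2 libraries may thus be technical. In whole fruit, fewer cells of a type and less RNA per cell cannot be told apart.

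NAC transcription factors of the VND type switch on the secondary cell wall program of water-conducting cells. MYB46, first described in *Arabidopsis*, acts as a second master switch below them and activates genes of cellulose, xylan and lignin synthesis. Lignin and flavonoids both arise from the phenylpropanoid pathway, so that a regulator of this pathway can touch wall strength and pigment in a fruit. The files do not pair gene identifiers with names. None of the identifiers matched the gene table at hand (0 of 34009 against 24946 genes of another assembly), so roles and sequences of the chosen genes are not given, and the transcripts of the constructs themselves were not checked.

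Counts per library summed to between 9765362 and 12845942, and 3 counts in a library correspond to 0.234 to 0.307 CPM. More genes were detected in both FvMYB46-OX libraries (23336 and 23199) than elsewhere (21923 to 22402). The bearing of this broader detection on the chosen genes was not tested.

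The limit on FvMYB46 was met by 169 genes. Of these, 75 were also lower by more than 0.5 on the log2 scale upon FvVND4c overexpression, 26 were higher by more than 0.5, and 68 lay in the band between. The band of the rule thus cuts through the genes that met the FvMYB46 limit, with genes on either side of it. Whether the chosen genes form a group of their own was not tested. Their log2 ratio with FvMYB46 had a median of -1.72 and ran from -4.13 to -1.51. It was at or under -2 in 16 genes and at or under -3 in 2. The median over all expressed genes was 0.01. Their ratio with FvVND4c had a median of -0.14, close to the -0.12 of all expressed genes, with 47 chosen genes below 0 and 21 above. These ratios fixed the choice and carry no test.

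**Figure D1:**
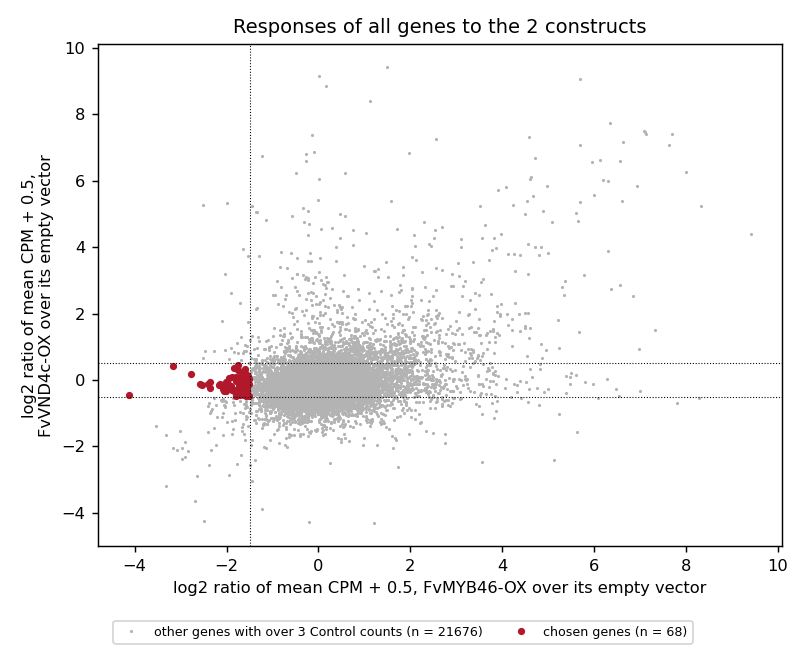
Log2 ratio with FvVND4c (vertical) against log2 ratio with FvMYB46 (horizontal), each construct over its own empty vector, for 21744 genes with over 3 counts in the empty-vector libraries. The 68 chosen genes (red) fill the band left of -1.5 and between -0.5 and 0.5 (dotted lines), with most of them next to the left limit.

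Genes just inside and just outside the limits differed little. FvH4_2g17750, the last gene inside the FvMYB46 limit, had a log2 ratio of -1.5054, and FvH4_6g43030, the first outside, had -1.4987. At the lower FvVND4c limit FvH4_2g21440 was inside at -0.4941 and FvH4_2g24900 outside at -0.5184. At the upper limit FvH4_5g23930 was inside at 0.4511 and FvH4_2g03010 outside at 0.5117. The minimum of 3 counts removed no gene that met the other limits. The chosen gene with the fewest empty-vector counts, FvH4_2g23510, had 30 in the 4 libraries together.

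Most chosen genes were well covered by reads. Their mean in the empty-vector fruits of the FvMYB46 experiment ranged from 1.19 to 1990.4 CPM, with 38.8 CPM in the median gene, where all expressed genes had a median of 10.4 CPM. CPM is not corrected for gene length, so these values tell how many reads stood behind a ratio and do not rank genes by transcript number. There were 7 genes under 5 CPM, 19 from 5 to 20 CPM, 22 from 20 to 100 CPM and 20 at 100 CPM or more. The median log2 ratio with FvMYB46 was alike in these classes, at -1.75, -1.68, -1.76 and -1.68 from the lowest to the highest. The rule caps this ratio, so alike medians describe the choice. Over the FvVND4c-experiment libraries, the FvMYB46-OX medians were -0.66, -1.1, -1.29 and -1.09 in the same order. Those of its empty vector were 0.9, 0.61, 0.54 and 0.48. Under 5 CPM the empty-vector median was thus the more distant. The FvMYB46 empty-vector libraries differed over 2-fold in 3, 3, 1 and 5 genes of these classes.

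Added up, the 68 genes held 3018 and 2886 CPM in FvMYB46-OX fruits, against 10266 and 9697 CPM with the empty vector of the same experiment. They held 6914 and 7749 CPM in FvVND4c-OX fruits, against 7385 and 7444 CPM with its empty vector. The FvVND4c-experiment libraries thus lay between the groups of the FvMYB46 experiment. The median gene showed the same order, with 9.82 and 8.31 CPM in FvMYB46-OX fruits, 36.5 and 40.9 CPM with their empty vector, 20.4 and 25.2 CPM in FvVND4c-OX fruits and 25.4 and 26.0 CPM with theirs.

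**Figure D2:**
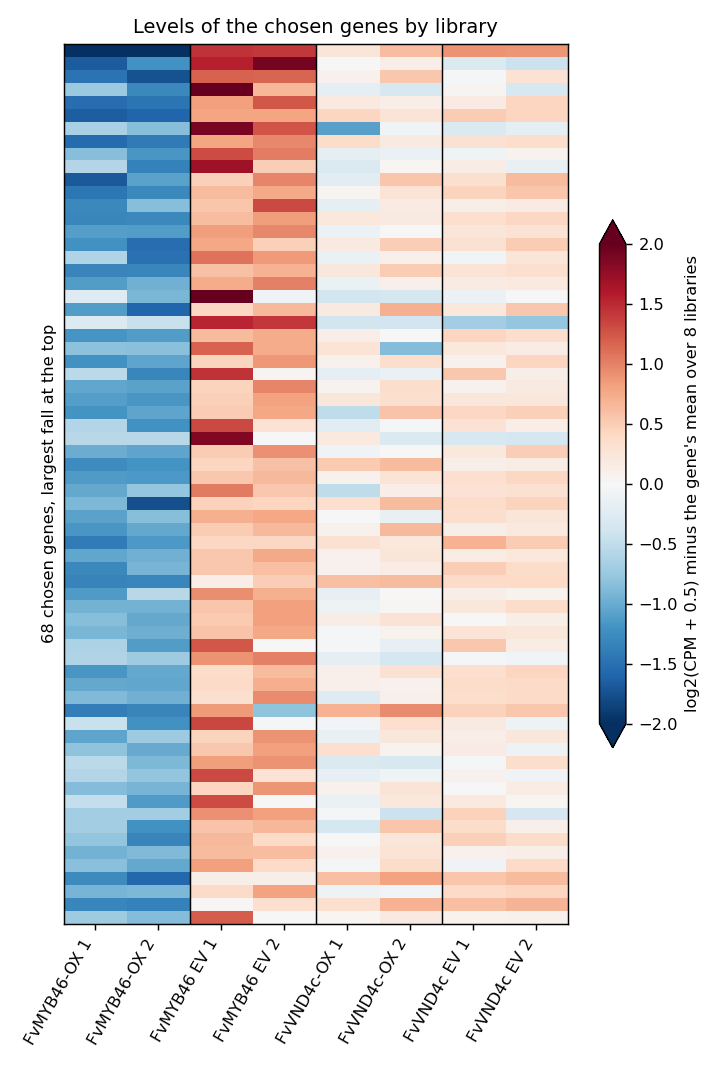
Level of each of the 68 chosen genes (rows, sorted by the log2 ratio with FvMYB46, lowest at the top) in each of the 8 libraries (columns, 2 per group), as log2(CPM + 0.5) minus the mean of the gene over the libraries. FvMYB46-OX libraries are below the mean of the gene, their empty-vector (EV) libraries mostly above it, and the FvVND4c-experiment libraries in between in most rows, while some rows show a dark red cell in empty-vector replicate 1 alone.

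Both FvMYB46-OX libraries were below both libraries of their empty vector in 68 of 68 genes, where 26.8% of all expressed genes showed this order, and nothing is read from it because the rule used that contrast. They were below all other 6 libraries, those of the FvVND4c experiment included, in 64 genes (11.3% of all expressed genes). The exceptions were FvH4_3g38990, FvH4_5g09420, FvH4_6g10880 and FvH4_6g41660, which are named here after their values were seen. Both empty-vector libraries from the FvMYB46 experiment were above all other 6 libraries in 43 genes (6.85% of all expressed genes), and in 40 genes both orders held together. The rule favours each of these orders, since it chose genes low in FvMYB46-OX fruits relative to that empty vector. Nothing is read from them. FvVND4c-OX and its empty vector overlapped in 32 genes (42.4% of all expressed genes). Of the others, FvVND4c-OX was lower in both libraries in 28 and higher in 8, against 40% and 17.7% of all expressed genes.

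In most chosen genes the low log2 ratio with FvMYB46 combined a lower level in FvMYB46-OX fruits with a higher level in their empty-vector fruits. This is a description, as the rule favours both. Set against the mean of the 4 FvVND4c-experiment libraries, FvMYB46-OX fruits had a median log2 ratio of -1.14 over the 68 genes (quartiles -1.59 and -0.97, range -3.38 to 0.18), with 67 genes below 0. The empty-vector fruits of the FvMYB46 experiment had a median of 0.55 on the same scale (quartiles 0.35 and 0.82, range -0.54 to 2.01), with 63 genes above 0. Both medians were 0.01 over all expressed genes. In 55 genes the FvMYB46-OX mean was the more distant from the FvVND4c-experiment libraries, and in 13 genes the empty-vector mean was. That split was not computed for all expressed genes, so nothing is read from it. The 5 genes whose empty-vector mean lay below the FvVND4c-experiment mean were FvH4_1g09610, FvH4_2g17750, FvH4_2g28970, FvH4_6g14170 and FvH4_7g31370, also named after their values were seen.

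**Figure D3:**
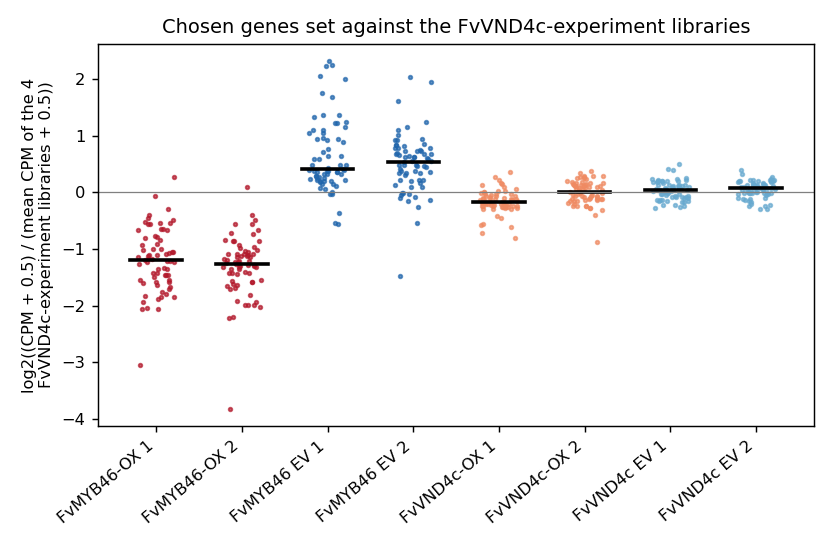
Log2 ratio of each of the 68 chosen genes (points) in each library to the mean of the 4 FvVND4c-experiment libraries, with 0.5 CPM added to both, and the median per library (black bar). Most points of FvMYB46-OX libraries lie below 0 and most points of their empty-vector libraries above it. An exception is FvH4_3g38990, with FvMYB46-OX above 0.

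With the FvVND4c empty vector as the control of FvMYB46-OX fruits, the log2 ratio had a median of -1.23 (range -3.59 to 0.37), against -0.04 over all expressed genes. It was below 0 in 67 of the 68 genes, under -1 in 51 and at or under -1.5 in 21. Of all expressed genes 2.57% were under -1, and shares at the other limits were not taken. A direct comparison of the overexpression groups gave a similar size, which the rule favours because it keeps FvVND4c-OX near its empty vector. FvMYB46-OX over FvVND4c-OX had a median log2 ratio of -1.10 with 67 genes lower, and a median of 0.09 over all expressed genes. These comparisons cross experiments, and any difference between the experiments enters them. Both describe the chosen genes and are not tests, since the rule picked genes for low levels in FvMYB46-OX fruits.

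In the fit over all 18766 genes that edgeR kept (its quasi-likelihood test, Benjamini-Hochberg adjusted p under 0.05 and absolute log2 fold change over 1), 67 chosen genes were tested. All 67 were called lower with FvMYB46, against 3.46% of all genes tested, and nothing is read from this because the rule used the contrast. With FvVND4c edgeR called 0 of them in either direction, against 5.29% of all genes tested, as the band of the rule leaves little room for a call. At an unadjusted p under 0.05 the number was 5, against 23% of all genes tested, and DESeq2 called 0. The difference between the responses was called in 62 genes, all of them more negative with FvMYB46, against 3.77% of all genes tested (57 with DESeq2). Between the empty vectors, 7 genes were called higher in the FvMYB46 experiment (0.618% of all genes tested) and 0 lower (1.62%). At an unadjusted p under 0.05 that comparison held 45 chosen genes, against 17.1% of all genes tested, and DESeq2 called 5. Nothing is read from these numbers either, because the rule divides by the FvMYB46 empty vector and so favours genes that are high there. The 7 became 14 when replicate 2 of the FvMYB46 empty vector was left out, and 4 when either library of the FvVND4c empty vector was.

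FvH4_5g02700, on chromosome 5 from 1623147 to 1625362 (coordinates of *F. vesca* v4.0.a2, as all below), had the lowest ratio with 0.5 CPM added. It held 3.27 and 1.70 CPM in FvMYB46-OX fruits, against 52.1 and 51.1 CPM with their empty vector. In FvVND4c-OX fruits it held 22.3 and 29.2 CPM, against 35.6 and 35.1 CPM with its empty vector. FvMYB46-OX libraries were the lowest by far, as the least of the other 6 libraries was 6.80 times the higher of them, and the FvVND4c-OX libraries also lay below both of their controls. The log2 ratios were -4.13 with FvMYB46 and -0.45 with FvVND4c, the second near the edge of the band.

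FvH4_6g24670, on chromosome 6 from 18708661 to 18710045, had the next lowest ratio, -3.17, and a different order of groups. It held 0.172 and 0.424 CPM in FvMYB46-OX fruits, against 5.82 and 7.55 CPM with their empty vector. FvVND4c-OX fruits had 1.63 and 1.84 CPM, against 1.26 and 1.09 CPM with theirs. Here the FvMYB46 empty-vector libraries stood apart as well, the lower of them at 3.16 times the highest of the other 6 libraries. Over the FvVND4c empty vector the log2 ratio of FvMYB46-OX was -1.07. As FvMYB46-OX fruits held only 2 and 5 counts of this gene, its ratio depended on the value added before taking logs, with -4.09 for 0.1 CPM and -2.57 for 1 CPM. The fold change fitted by edgeR was -4.45 on the log2 scale, lower than the -4.39 of FvH4_5g02700, so the order of these genes is not settled.

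FvH4_1g29920, on chromosome 1 from 23650700 to 23656963, came next after FvH4_5g02700 in how far FvMYB46-OX lay below the other 6 libraries, among genes with at least 5 CPM in the FvMYB46 empty vector. Its libraries held 0.517 and 0.339 CPM in FvMYB46-OX fruits, against 5.91 and 5.84 CPM with the empty vector. FvVND4c-OX fruits held 2.49 and 3.58 CPM, against 2.25 and 2.95 CPM with the empty vector. The lowest of the other libraries was 4.36 times the higher FvMYB46-OX library, and FvVND4c-OX and its control overlapped. The log2 ratio with FvMYB46 was -2.78, or -1.74 over the FvVND4c empty vector. It was -3.50 with 0.1 CPM added and -2.27 with 1 CPM.

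FvH4_3g38990, on chromosome 3 from 33233292 to 33235634, was the opposite case, in which the control stood apart. FvMYB46-OX fruits had 12.7 and 11.2 CPM, against 45.2 and 42.1 CPM with their empty vector. FvVND4c-OX fruits had 11.9 and 11.8 CPM, against 9.38 and 8.84 CPM with theirs. The FvMYB46 empty-vector libraries thus stood alone, the lower of them at 3.32 times the highest of the other 6. Its log2 ratio with FvMYB46 was -1.83 against its own empty vector but 0.37 against that of the FvVND4c experiment.

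The 2 chosen genes with the highest FvMYB46 empty-vector means had close replicates. This did not hold for all well-covered genes. Among the 20 chosen genes at 100 CPM or more, the FvMYB46 empty-vector libraries differed over 2-fold in 5. FvH4_6g35830, on chromosome 6 from 28260216 to 28265207, held 613.1 and 649.1 CPM in FvMYB46-OX fruits, against 1835.2 and 2145.5 CPM with the empty vector. It held 1337.0 and 1491.3 CPM in FvVND4c-OX fruits, against 1405.8 and 1462.4 CPM with theirs, so that the FvVND4c groups overlapped. FvH4_5g23930, on chromosome 5 from 15219088 to 15224903, held 385.4 and 400.0 CPM in FvMYB46-OX fruits, against 1244.4 and 1384.2 CPM with the empty vector. In this gene FvVND4c-OX fruits, with 1324.9 and 1433.9 CPM, were above their empty vector, with 996.7 and 1021.2 CPM. FvMYB46-OX was below every other library in both genes.

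Replicates of the FvMYB46 empty vector disagreed in part of the list. Replicate 1 was over 2-fold above replicate 2 in 12 of the 68 genes and the reverse held in 0, where 4.0% and 0.138% of all expressed genes showed such ratios. The corresponding numbers were 0 and 0 in FvMYB46-OX fruits, where 0.46% and 0.189% of all expressed genes showed such ratios. They were 1 and 2 in FvVND4c-OX fruits (2.06% and 0.29%) and 0 and 0 with the FvVND4c empty vector (0.304% and 0.161%). In these 12 genes replicate 1 of the empty vector had a median log2 ratio of 1.29 to the FvVND4c-experiment libraries and replicate 2 one of 0.04. The medians were 0.37 and 0.62 in the other 56 genes. Against replicate 2 alone, FvMYB46-OX fruits had a median log2 ratio of -0.82 in the 12 genes and 1 of them was at or under -1.5, while 53 of the other 56 were. Against replicate 1 alone, all 12 and 45 of the 56 were. The 12 genes were split off by the difference between these replicates, so the gap between their ratios describes the split. The rule uses the mean of both empty-vector libraries, so a single high library can bring a gene into the list.

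Most of the 12 genes were also higher in replicate 1 of FvMYB46-OX. Replicate 1 was above replicate 2 there in 10 of the 12 genes, and over 1.5-fold above it in 6, with a median log2 ratio of 0.59. In the other 56 genes it was above in 29, over 1.5-fold above in 3, and the median was 0.01. These counts were not taken over all expressed genes. Across 13585 genes the replicate differences of FvMYB46-OX and its empty vector correlated with a Pearson r of 0.25. The replicate number links libraries only by name, and whether libraries of equal number share a day or a set of fruits is unknown here.

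**Figure D4:**
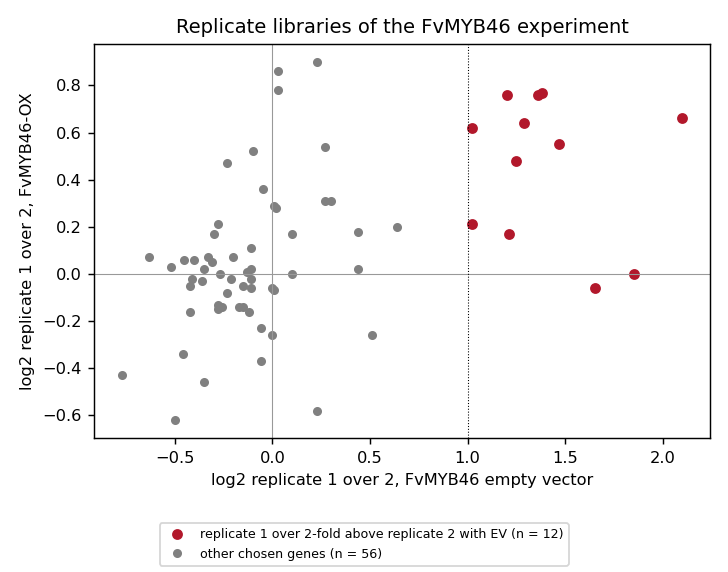
Log2 ratio of replicate 1 over replicate 2 in FvMYB46-OX fruits (vertical) against the same ratio with their empty vector (horizontal) for the 68 chosen genes. The 12 genes right of the dotted line (red) have over 2-fold more in empty-vector replicate 1, and 10 of them lie above 0 on the vertical axis.

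FvH4_2g21410 and FvH4_2g21440 had the most unequal empty-vector libraries among genes with at least 5 CPM there. FvH4_2g21410 held 7.33 and 4.83 CPM in FvMYB46-OX fruits, against 56.9 and 20.2 CPM with the empty vector, which differed 2.82-fold. It held 11 and 10 CPM in FvVND4c-OX fruits, against 13.1 and 9.93 CPM with theirs. FvH4_2g21440 held 119.1 and 69.7 CPM in FvMYB46-OX fruits, against 472.3 and 181.1 CPM with the empty vector, which differed 2.61-fold. In FvVND4c-OX fruits it held 153.5 and 158.3 CPM, against 251.0 and 188.7 CPM with theirs. Both genes were lowest in FvMYB46-OX fruits and highest in empty-vector replicate 1. Leaving out single libraries moved the log2 ratio with FvMYB46 between -3.12 and -1.65 for FvH4_2g21410 and between -2.32 and -0.94 for FvH4_2g21440.

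FvH4_2g23510, on chromosome 2 from 19268802 to 19270178, was the least covered of the chosen genes and was not among those edgeR kept. Neither FvMYB46-OX library held a count, against 25 and 3 counts with the empty vector, or 2.14 and 0.234 CPM. FvVND4c-OX fruits held 0.344 and 0.102 CPM, against 0.0902 and 0.0841 CPM with theirs. With 3 counts over the FvMYB46-OX group as its floor, an allowance for counting error alone, the gene was at least 8.90-fold lower, but this rests on empty-vector replicate 1. With the gene set to that bound the median of the list stayed at -1.72.

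The chosen genes were spread over all 7 chromosomes. Chromosomes 1 to 7 held 7, 12, 12, 8, 9, 17 and 3 of them. Chromosome 6 had the largest share, 25% of the chosen genes against 18.9% of all expressed genes, and chromosome 7 the smallest, 4.41% against 11.6%. There were 31 on the plus strand and 37 on the minus strand. Their gene spans, introns included, had a median of 2096.0 bp (516 to 6702 bp), against 3028.5 bp for all expressed genes. The span of 7 genes overlapped another gene, on the opposite strand except for FvH4_1g09671, and reads inside such an overlap cannot be assigned with certainty because no source gives the strand used for counting. The share was 13.7% among all expressed genes. FvH4_4g21350 had the partner with most reads, as FvH4_4g21340 had 92490 counts over the 8 libraries against its own 873 and a log2 ratio with FvMYB46 of 2.1. Both were singled out after their values were seen.

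Some of the chosen genes had neighbours that were lower as well. A total of 8 genes, in 4 pairs, had another chosen gene within 50 kb, which is 11.8% of the list against 3.60% of all expressed genes with a chosen gene that near. In each pair both genes lay on the same strand. Among the expressed genes that flank a chosen gene, 56.7% lay on the strand of a chosen gene they flank. An adjacent expressed gene with a log2 ratio with FvMYB46 under -1 was found for 14 chosen genes (20.6%), against 5.45% of all expressed genes. Among the 537 other expressed genes that were themselves under -1, the share was 15.3%, so such neighbourhoods were also common among lower genes outside the list. Neighbours can be near-identical copies that share reads, which could not be checked without sequences. The remaining 54 chosen genes had no adjacent expressed gene under -1.

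The tightest pair was FvH4_6g43340 and FvH4_6g43350, adjacent genes on the plus strand of chromosome 6 (33558938 to 33559967 and 33561194 to 33562204) with 1226 bp between them. FvH4_6g43340 held 160.6 and 192.2 CPM in FvMYB46-OX fruits, against 678.7 and 477.7 CPM with the empty vector. In FvVND4c-OX fruits it held 230.2 and 359.1 CPM, against 402.9 and 406.8 CPM with theirs. FvH4_6g43350 held 3.71 and 5.77 CPM in FvMYB46-OX fruits, against 17.1 and 14.5 CPM with the empty vector. In FvVND4c-OX fruits it held 7.74 and 8.70 CPM, against 9.47 and 9.17 CPM with theirs. In both genes FvMYB46-OX was lowest, its empty vector highest, and FvVND4c-OX below its own control.

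This pair belonged to a run of 5 adjacent expressed genes, FvH4_6g43320 to FvH4_6g43360 (33552682 to 33564441), all with a log2 ratio with FvMYB46 under -1. The 3 genes of the run outside the list missed a limit of the rule, as FvH4_6g43360 had -1.62 with FvMYB46 but -0.53 with FvVND4c. The longest run held 6 genes on the plus strand of chromosome 2 from 17794849 to 17832538, FvH4_2g21390 to FvH4_2g21440, of which FvH4_2g21410 and FvH4_2g21440 were chosen. Genes of these runs were singled out after their values were seen. Other genes of the longest run were among those with most reads. FvH4_2g21420, between the chosen genes, held 2100.6 and 1533.3 CPM in FvMYB46-OX fruits, against 5962.7 and 2864.9 CPM with the empty vector. FvVND4c-OX fruits held 2915.2 and 2926.9 CPM of it, against 2828.8 and 2585.0 CPM with theirs. In each gene of this run empty-vector replicate 1 of the FvMYB46 experiment was the highest of the 8 libraries.

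**Figure D5:**
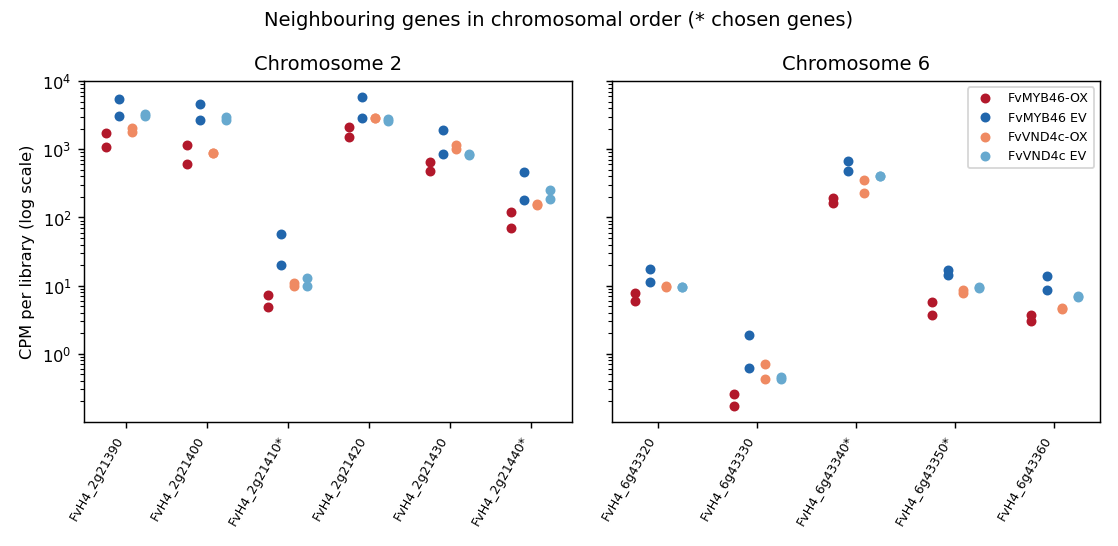
Level in CPM (logarithmic axis) in each library of the genes in the 2 longest runs, in chromosomal order, with chosen genes marked by an asterisk and 2 points per group. FvMYB46-OX (dark red) was below its empty vector (EV, dark blue) in each gene, and in the run on chromosome 2 the empty-vector points lie far apart.

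A neighbour could also differ in its ratio with the second construct. FvH4_3g08000 was chosen with log2 ratios of -2.36 with FvMYB46 and -0.05 with FvVND4c. It held 7.67 and 8.48 CPM in FvMYB46-OX fruits, against 40.8 and 46.0 CPM with the empty vector. The next gene, FvH4_3g08010, held 0.259 and 0.509 CPM in FvMYB46-OX fruits, against 3 and 1.48 CPM with the empty vector. It held 37.3 and 36.8 CPM in FvVND4c-OX fruits, against 1.62 and 2.27 CPM with theirs, a log2 ratio of 3.94. The pair was singled out after its values were seen.

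The deposited TPM files, which list 17698 genes, held 65 of the 68 chosen genes. From TPM with the same 0.5 added, the median log2 ratio was -1.70 with FvMYB46 (-4.15 to -1.49) and -0.19 with FvVND4c, and 60 of the 65 genes were at or under -1.5 with FvMYB46. The chosen list depends on single libraries at its FvMYB46 limit. The rule gave 116 genes without FvMYB46-OX replicate 1 and 132 without empty-vector replicate 2 of that experiment, sharing 65 and 57 genes with the 68. With the empty vectors exchanged between the experiments, 49 genes met the rule and 10 of them were among the 68.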

How the data were processed

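RNA-seq counts of 8 fruit libraries were used. The authors trimmed reads with fastp 0.20.1, mapped them with HISAT2 2.2.1 to *F. vesca* v4.0.a2, removed duplicates with SAMtools 1.9 and counted reads per gene with featureCounts 2.0.3. The strand setting of counting was not stated. The deposited count files hold raw counts for 34009 genes. The deposited TPM files hold values that the authors computed from these counts over whole gene spans for 17698 genes.

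CPM was the count over the column sum. Chosen genes were found as the report states, with 0.5 CPM added before taking logs. Differential expression used edgeR 4.0.16 (filterByExpr, TMM, quasi-likelihood) with limma 3.58.1 in R 4.3.3 on all 8 libraries with 4 groups. The fit was also run on simulated data, and the outcome is not reported here. DESeq2 1.42.0 was an alternative. Figures were drawn with matplotlib 3.10.9.

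Chosen genes, named-gene rule and alternatives were set with earlier results of these data known. Genes are named, at most 2 of each kind, for most reads, lowest ratio, nearness to a limit, unequal control libraries, distance below or above the other libraries, and closest neighbours. Alternatives were other scalings, filters, pseudocounts, controls, DESeq2, a replicate block and leaving out each library.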

Additional observations from a re-analysis of the deposited data

Results flagged for a closer look

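The responses to FvMYB46 and FvVND4c differed in 62 of the chosen genes by edgeR's test of the difference itself, all of them with the more negative log2 fold change for FvMYB46. The rule chose genes for this difference, so the number describes the choice.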

How the results depend on the processing

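Among the alternatives, 100 values of the main results stayed within their limits and 14 moved. The limit for a count was 1.5-fold, whichever genes it held, and for a median the spread between replicates. The 49 genes found with exchanged empty vectors thus stayed within the limit, though only 10 of them were among the 68. Of the log2 ratios of named genes, 156 stayed, 22 moved and 1 reversed. With no fold limit edgeR called 1 chosen gene with FvVND4c. Between the empty vectors it called 4 with low counts left in, 4 where every library had to hold at least 10 counts and 15 with no fold limit, and 4 to 14 without single libraries. The rule gave 133 genes with 0.1 CPM added (64 of the 68 among them), 32 with the mean of all 4 empty-vector libraries as control (26 among them) and 62 to 132 without single libraries. The medians against the FvVND4c-experiment libraries ran from -1.26 to -1.10 for FvMYB46-OX and from 0.41 to 0.58 for its empty vector. Calls ran from 60 to 68 for FvMYB46, from 48 to 63 for the difference and stayed at 0 for FvVND4c without single libraries. FvH4_3g38990 turned to 0.37 against the other empty vector. Neighbours under -0.75 or -1.25 were found for 20 or 12 chosen genes.

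Equal replicate numbers do not show a pairing by the labels. Differences between replicates correlated across 13585 genes between overexpression and empty vector with a Pearson r of 0.25 for FvMYB46 and 0.40 for FvVND4c. Over the 68 chosen genes r was 0.52 for FvMYB46 and 0.30 for FvVND4c. Genes are not independent replicates. With the replicate number as a block, edgeR called 67 chosen genes lower with FvMYB46, 0 with FvVND4c, 64 for the difference and 8 between the empty vectors.

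With 2 libraries per group and genes without names, the data do not say which cells or pathways the chosen genes belong to. Levels near 0.3 CPM are near the counting floor.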
